A study of Homo sapiens with 6 samples.

Results

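The transcripts described here encode 10 enzymes of de novo nucleotide synthesis: PPAT, GART, PAICS, ATIC, IMPDH1 and IMPDH2 of the purine route, and CAD, DHODH, UMPS and CTPS1 of the pyrimidine route. They were taken by gene symbol, all 10 were found among the 19470 genes of the count table, and all 10 had enough counts to be among the 13336 genes tested. The samples were 6 RNA sequencing libraries of wild-type A549 cells, an established line derived from a human lung adenocarcinoma. In the activated group, 3 libraries came from cells that osteoclast-conditioned medium had brought out of dormancy. In the dormant group, 3 libraries came from cells in an induced dormant state, and the labels state neither the inducing step nor the base medium of either group. The activated cells therefore differed from the dormant cells by their medium as well as by their named state, and the effects of medium and state cannot be told apart. The labels do not say whether replicate libraries stem from independent cultures, so the p-values reflect library-to-library spread alone, possibly technical.

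De novo synthesis builds purine and pyrimidine rings from amino acids, bicarbonate and, for purines, formyl groups carried by folate. The purine route assembles its ring on phosphoribosyl pyrophosphate (PRPP) and ends at inosine monophosphate (IMP), which is then turned into AMP or GMP. The pyrimidine route makes the ring first and attaches PRPP afterwards, ending at uridine monophosphate, from which CTP is made. Growing cells draw on both routes for RNA and DNA, while resting cells can rely more on salvage of preformed bases and nucleosides. The comparison asks which of these transcripts differed between cells that had left dormancy and cells still in it.

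Total counts per library were 34478795 to 36397989 in activated cells and 34128471 to 36667725 in dormant cells. Pearson correlations of log2 CPM, counts scaled to a common library size, across genes were 0.994 to 0.995 among activated libraries and 0.996 among dormant libraries, against 0.925 to 0.928 between groups. All 8 listed A549 and epithelial markers were detected, EPCAM with only 14 to 26 counts in activated and 26 to 65 in dormant libraries. Their summed level was 15620 to 16950 CPM in activated libraries and 7185 to 7657 CPM in dormant libraries, and 5 rose and 2 fell in activated cells. ALDH1A1 alone was at 7548 to 7786 CPM in activated and 1559 to 1589 CPM in dormant libraries. KRT8 was at 3292 to 3629 CPM in activated and 1591 to 1727 CPM in dormant libraries. KRT7 was at 1811 to 2048 CPM in activated and 1928 to 2312 CPM in dormant libraries. CDKN2A, known to be deleted in A549, had 0 counts in the activated libraries and 1 count in all in the dormant libraries. The 10 osteoclast markers summed to 22.9 to 24.8 CPM in activated cells and 53.2 to 55.0 CPM in dormant cells, with 1 higher and 4 lower in activated cells, and CALCR, DCSTAMP and OCSTAMP had 0 counts throughout. Within that sum ATP6V0D2 alone had 0 to 0.18 CPM in activated and 18.2 to 21.3 CPM in dormant libraries. The 10 myeloid markers summed to 160 to 169 CPM in activated cells and 133 to 144 CPM in dormant cells, with 4 of 4 tested higher in activated cells and TYROBP, AIF1, C1QA and C1QB at 0 counts throughout. Most of that sum was CD68, at 148 to 156 CPM in activated and 131 to 142 CPM in dormant libraries. CD14 was at 8.86 to 9.78 CPM in activated and 0.70 to 1.49 CPM in dormant libraries. LAPTM5 was at 1.84 to 2.25 CPM in activated and 0.18 to 0.25 CPM in dormant libraries. CSF1R was at 0.64 to 0.85 CPM in activated and 0 to 0.16 CPM in dormant libraries. PTPRC and FCER1G had at most 5 counts in any library. The 6 bone stroma and osteoblast markers summed to 456 to 502 CPM in activated cells and 580 to 596 CPM in dormant cells, 2 of 4 tested being higher and 2 lower in activated cells. Nearly all of this was SPP1, at 439 to 485 CPM in activated and 559 to 575 CPM in dormant libraries. These marker calls, at an adjusted p under 0.05, compare with 36.5% of all tested genes higher and 37.2% lower in activated cells. Whether RNA of other cell types had any part in the values of the nucleotide enzymes was not tested.

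Transcripts of de novo synthesis enzymes differed little between the groups. In activated cells 6 of the 10 rose, namely PAICS, PPAT, IMPDH1, IMPDH2, CTPS1 and UMPS, none fell, and GART, ATIC, CAD and DHODH did not pass the threshold, set at 0.05 for the adjusted p of the quasi-likelihood test in edgeR. The 6 of 10 called, or 60%, compares with 73.7% of all tested genes, of which 36.5% were higher and 37.2% lower in activated cells. None of the 10 changed by 2-fold, whereas 22.2% of tested genes passed with a change of at least 2-fold. The median absolute log2 fold change was 0.27 for the 10 transcripts and 0.50 for all tested genes, and 9 of the 10 lay below that overall median, PAICS being the exception. The libraries of the groups did not overlap for 7 of the 10, against 76.5% of tested genes. The CPM used here are normalised by TMM factors. When libraries were scaled by their totals instead, 6 were again called, but as 4 higher and 2 lower. In bulk RNA, a larger share of cells with a transcript and more of it per cell cannot be told apart. All scalings used here are relative, so a difference in total RNA per cell would not be seen.

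**Figure D1:**
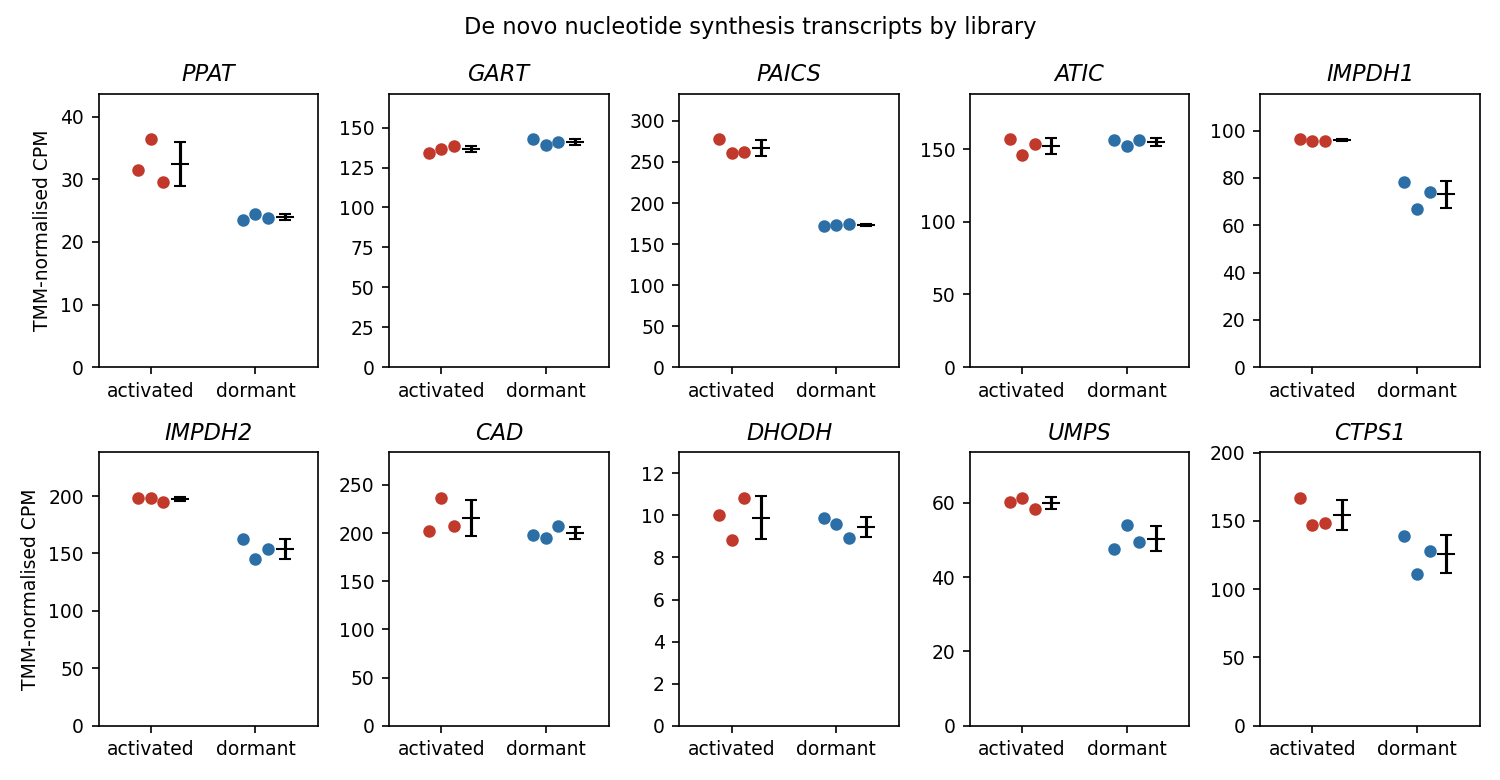
TMM-normalised CPM of the 10 de novo synthesis transcripts in each library, with the 3 activated libraries in red on the left and the 3 dormant libraries in blue on the right of each panel; the bar beside each group is the mean with its SD. PAICS shows the widest gap, at 261 to 278 CPM in activated and 172 to 174 CPM in dormant libraries, while the groups overlap for ATIC, CAD and DHODH.

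PPAT encodes the amidotransferase that commits PRPP to the purine route. It lies on chromosome 4, positions 56393362 to 56435615, minus strand (RefSeq, GRCh38.p14, as are the other positions). PPAT had 31.5, 36.4 and 29.6 CPM in activated libraries, against 23.5, 24.5 and 23.9 CPM in dormant libraries. Every activated library was above every dormant library, and the activated libraries were the more spread out. The rise was 1.36-fold (95% interval 1.2 to 1.53, log2 fold change 0.44 ± 0.08 SE, adjusted p = 0.000215).

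PAICS encodes the bifunctional enzyme of the carboxylation and aspartate-adding steps. Its annotated span, chromosome 4, positions 56410507 to 56464578, plus strand, overlaps PPAT, since the most upstream of its annotated starts lies inside that gene. PAICS had 278, 261 and 263 CPM in activated libraries, against 172, 173 and 174 CPM in dormant libraries. The gap between the lowest activated and the highest dormant library was wider than the spread within either group. The rise was 1.54-fold (95% interval 1.44 to 1.66, log2 fold change 0.63 ± 0.05 SE, adjusted p = 1.55e-08), the largest of the 10 and at the 58.9th percentile of absolute log2 fold changes of all tested genes. GENCODE release 29 names 7 pseudogenes after PAICS, 2 after PPAT and 7 after IMPDH1, so reads shared with those copies make these levels uncertain. The sources do not state whether counting used strand. In RefSeq, PPAT and PAICS overlap each other on opposite strands, whereas in GENCODE release 29 they do not. In that GENCODE release, genes on the opposite strand overlap PPAT (2 noncoding), GART (SON), IMPDH2 (1 antisense) and UMPS (1 pseudogene). Without strand, reads from such overlaps cannot be told apart.

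An annotated start of PAICS lies 137 bases from that of PPAT, facing away from it, and both transcripts rose. The stretch between these starts is shown because it is the DNA the pair has in common. It is chr4:56435616-56435751 on the plus strand, read toward PAICS, has 136 bases, of which 75% are G or C, and capitals mark the letters GGGCGG, the core of a GC box bound by SP-family factors.
PPAT to PAICS: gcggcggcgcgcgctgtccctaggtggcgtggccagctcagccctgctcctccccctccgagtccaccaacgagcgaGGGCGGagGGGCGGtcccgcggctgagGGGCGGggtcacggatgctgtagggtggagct
The stretch holds 3 such matches. Within each library, the ratio of PAICS to PPAT counts was 8.81, 7.16 and 8.88 in activated libraries, against 7.32, 7.05 and 7.29 in dormant libraries. The activated library with the lowest ratio, replicate 2, fell inside the dormant range, so the groups overlapped. The log2 ratio differed by 0.19 ± 0.10 SE between activated and dormant libraries, without passing a two-sided exact permutation test (p = 0.3, where 3 libraries against 3 allow no p below 0.1). Without activated replicate 2 the difference was 0.29 (exact permutation p = 0.1, the smallest the remaining libraries allow). Leaving out any other single library gave 0.14 to 0.20 (exact permutation p = 0.3 or 0.4).

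GART and ATIC, which carry most of the remaining steps to IMP, did not follow PPAT and PAICS. GART encodes a trifunctional enzyme that acts at an early step, at the formyl transfer that follows and at the closing of the imidazole ring, and lies on chromosome 21, positions 33503931 to 33542893, minus strand. GART had 134, 137 and 138 CPM in activated libraries, against 143, 139 and 141 CPM in dormant libraries. The activated libraries all lay just below the dormant ones, yet the difference did not pass the threshold (log2 fold change -0.05 ± 0.05 SE, fold 0.903 to 1.04 at 95%, adjusted p = 0.376). ATIC encodes the bifunctional enzyme of the last steps, a formyl transfer and the closure to IMP, and lies on chromosome 2, positions 215312059 to 215368592, plus strand. ATIC had 157, 146 and 154 CPM in activated libraries, against 156, 152 and 156 CPM in dormant libraries. The groups overlapped, and the difference did not pass (log2 fold change -0.03 ± 0.05 SE, fold 0.913 to 1.06 at 95%, adjusted p = 0.633). With total counts both were lower in activated cells, GART by -0.19 (adjusted p = 0.002) and ATIC by -0.17 (adjusted p = 0.00586) on the log2 scale. Without activated replicate 2 the ATIC difference turned to 0.0051, again short of the threshold, and the length correction turned that of GART to 0.0011.

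Like PPAT and PAICS, GART has a gene starting close by on the opposite strand. Its neighbour SON, a splicing co-factor gene, starts 146 bases away, was at 232, 284 and 258 CPM in activated libraries, against 259.9, 256 and 252 CPM in dormant libraries, and did not pass either (log2 fold change 0.01 ± 0.06 SE, adjusted p = 0.889). The DNA between these starts is given for comparison with that of the pair that rose. It is chr21:33542893-33543037 on the minus strand, read toward GART, has 145 bases, of which 66.2% are G or C, and capitals mark CCAAT in either orientation, the box bound by NF-Y.
SON to GART: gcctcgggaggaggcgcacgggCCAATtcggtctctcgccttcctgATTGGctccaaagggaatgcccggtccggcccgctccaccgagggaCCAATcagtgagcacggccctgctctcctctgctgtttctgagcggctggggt
This stretch has 3 CCAAT matches and the stretch between PPAT and PAICS has none. Both stretches were chosen with the values known, and whether either box had a part in the changes was not tested. ATIC is shown because its upstream DNA carries an E-box, CACGTG, the letters bound by MYC with its partner MAX. The 150 bases before its start, chr2:215311909-215312058 on the plus strand, have that E-box in capitals. An annotated start of LOC124907975, facing away from ATIC, lies 87 bases from that of ATIC, inside the stretch.
Upstream of ATIC: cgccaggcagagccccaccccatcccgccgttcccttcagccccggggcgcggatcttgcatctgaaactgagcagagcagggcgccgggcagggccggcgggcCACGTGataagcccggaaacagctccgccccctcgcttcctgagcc
The E-box opens 46 bases before the start, and another lies 30 bases into the transcript. A GC box on the other strand, left unmarked, opens 22 bases before the start.

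Windows from 250 bases before to 50 after each annotated start were searched on both strands for these boxes and for GCGGGAA, an E2F element, in RefSeq promoter sequences of GRCh38.p14. Of the 10 genes, 9 had such windows, 14 in all, and IMPDH2 had none in the table used. An E-box was found in 4 of the 14 (PPAT, PAICS, ATIC and DHODH), against 7.26% of all 35116 windows and 9.18% of windows of tested genes, and PPAT and PAICS share a single E-box that lies 41 bases into PAICS. GGGCGG was found in 9 of 14 windows, against 45% of all windows and 65.1% of those of tested genes. Those windows came from PPAT, PAICS, CTPS1 and IMPDH1, which rose, and from GART, ATIC, CAD and DHODH, which did not pass. CCAAT was found in 5 of 14, from CAD, DHODH and GART, against 34.6% of all windows and 34.3% of those of tested genes. GCGGGAA was found in 2 of 14, from GART and PAICS, against 6.55% of all windows and 9.32% of those of tested genes. Windows of neighbouring starts overlap, and a match is a run of letters, not a measured binding site. The 4 genes with an E-box comprised 2 that rose and 2 that did not pass.

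IMP dehydrogenase makes the committed step from IMP toward GTP, and both of its isoenzyme transcripts rose by nearly the same factor. IMPDH1 lies on chromosome 7, positions 128392277 to 128409982, and IMPDH2 on chromosome 3, positions 49024325 to 49029398, both on the minus strand. IMPDH1 had 96.4, 95.7 and 95.5 CPM in activated libraries, against 78.1, 66.8 and 74.2 CPM in dormant libraries. The activated libraries were almost equal and all above the dormant ones, which were lowest in replicate 2 (1.31-fold, log2 fold change 0.39 ± 0.06 SE, adjusted p = 3.05e-05). IMPDH2 had 198, 199 and 195 CPM in activated libraries, against 162, 145 and 154 CPM in dormant libraries. Here too the groups did not overlap and dormant replicate 2 was lowest (1.28-fold, log2 fold change 0.36 ± 0.05 SE, adjusted p = 1.63e-05). The ratio of IMPDH2 to IMPDH1 per gene length was 3.17, 3.20 and 3.15 in activated libraries, against 3.20, 3.35 and 3.20 in dormant libraries. The log2 ratio differed by -0.03 ± 0.02 SE (exact permutation p = 0.2, two-sided), and the groups overlapped.

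The pyrimidine route begins with CAD, a trifunctional protein that makes dihydroorotate and is activated by growth factor signalling through phosphorylation. CAD lies on chromosome 2, positions 27217369 to 27243943, plus strand. It had 202, 237 and 207 CPM in activated libraries, against 197, 195 and 207 CPM in dormant libraries. Activated replicate 2 stood above all others while the other libraries overlapped, and the difference did not pass (log2 fold change 0.11 ± 0.06 SE, fold 0.986 to 1.18 at 95%, adjusted p = 0.116). It passed without activated replicate 1 (0.15, adjusted p = 0.021) and after a correction for gene length (0.23, adjusted p = 0.000659), and was -0.031 with total counts.

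DHODH, the mitochondrial enzyme that oxidises dihydroorotate and passes electrons to ubiquinone, lies on chromosome 16, positions 72008744 to 72027659, plus strand. It had 9.996, 8.82 and 10.8 CPM in activated libraries, against 9.86, 9.57 and 8.95 CPM in dormant libraries. The groups overlapped throughout (log2 fold change 0.06 ± 0.12 SE, fold 0.872 to 1.252 at 95%, adjusted p = 0.652), and the value was -0.0057 without activated replicate 3 and -0.077 with total counts. DHODH had the fewest counts of the 10, down to 306 in a library, and the widest interval.

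UMPS, which joins orotate to PRPP and decarboxylates the product to uridine monophosphate, lies on chromosome 3, positions 124730452 to 124749273, plus strand. It had 60.1, 61.4 and 58.4 CPM in activated libraries, against 47.5, 54.0 and 49.5 CPM in dormant libraries. All activated libraries were above all dormant ones (1.19-fold, log2 fold change 0.25 ± 0.06 SE, adjusted p = 0.00183). CTPS1, a CTP synthase needed for lymphocyte proliferation, lies on chromosome 1, positions 40979696 to 41012565, plus strand. It had 167, 147 and 148 CPM in activated libraries, against 139, 111 and 128 CPM in dormant libraries. The groups did not overlap, but the spread within each was wide, replicate 1 being highest in both (1.23-fold, log2 fold change 0.29 ± 0.07 SE, adjusted p = 0.00245). Neither call held with total counts, where UMPS was at 0.11 (adjusted p = 0.127) and CTPS1 at 0.16 (adjusted p = 0.062). The ratio of CTPS1 to CTPS2, its isoenzyme, was 5.04, 3.78 and 4.23 by counts in activated libraries, against 4.02, 3.14 and 3.65 in dormant libraries. These ranges overlapped (log2 difference 0.27 ± 0.16 SE, exact permutation p = 0.2, two-sided). Adjusted over the 3 ratios examined, each exact permutation p was 0.3.

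**Figure D2:**
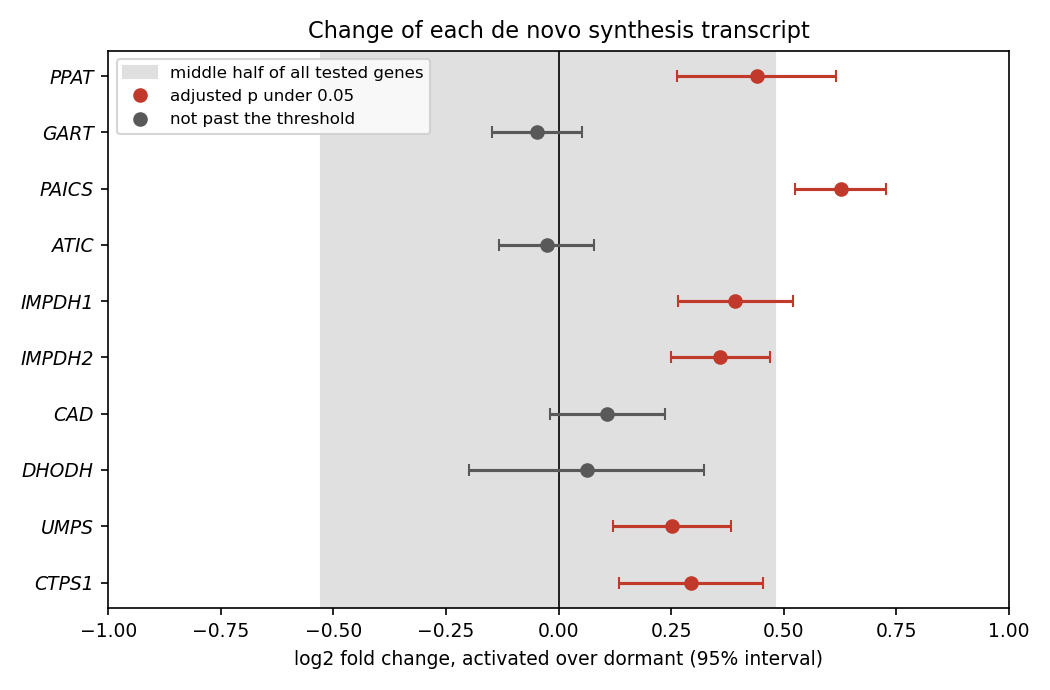
Log2 fold change of each transcript, activated over dormant, with its 95% interval; red points passed an adjusted p of 0.05, grey points did not, and the shaded band holds the middle part of all tested genes, from the lower to the upper quartile (-0.53 to 0.48). Only PAICS, at 0.63, lies outside the band, and no interval reaches a log2 fold change of 1.

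The log2 fold changes of the purine and pyrimidine members lay in overlapping ranges, -0.05 to 0.63 and 0.06 to 0.29. The highest upper end of any of the 10 intervals was 1.66-fold, so under TMM scaling a 2-fold rise lay outside all of them. Leaving out any single library kept the 6 calls, as 6 or 7 members passed each time, CAD being the addition without activated replicate 1.

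Per kilobase of gene length, the 10 levels spanned 34.4-fold in activated cells and 28-fold in dormant cells. In FPKM, the authors' per-length unit, IMPDH2 was highest (109 ± 1.16 in activated and 93.6 ± 4.31 in dormant cells, SD, n = 3 each) and DHODH lowest (3.17 ± 0.32 in activated and 3.34 ± 0.16 in dormant cells). The activated order after IMPDH2 was PAICS, ATIC, CTPS1, IMPDH1, GART, CAD, UMPS, PPAT and DHODH. In that order the libraries overlapped between neighbours for CTPS1 and IMPDH1, for GART and CAD, and for UMPS and PPAT. The dormant order was IMPDH2, ATIC, PAICS, GART, CTPS1, IMPDH1, CAD, UMPS, PPAT and DHODH, with overlap from GART through CTPS1 and IMPDH1 to CAD. PAICS and ATIC thus exchanged places, at 57.1 ± 1.99 and 52.8 ± 1.90 FPKM in activated cells, and 40.7 ± 0.51 and 59.3 ± 0.49 FPKM in dormant cells (SD, n = 3 each). The order within a library does not depend on scaling. Differences in FPKM between groups do, since the authors' FPKM are scaled by library totals. With TMM factors the groups overlapped for ATIC, and its difference did not pass. PPAT, the committing enzyme of the purine route, was the second lowest in both groups, at 8.41 ± 0.92 FPKM in activated and 6.83 ± 0.21 FPKM in dormant cells.

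**Figure D3:**
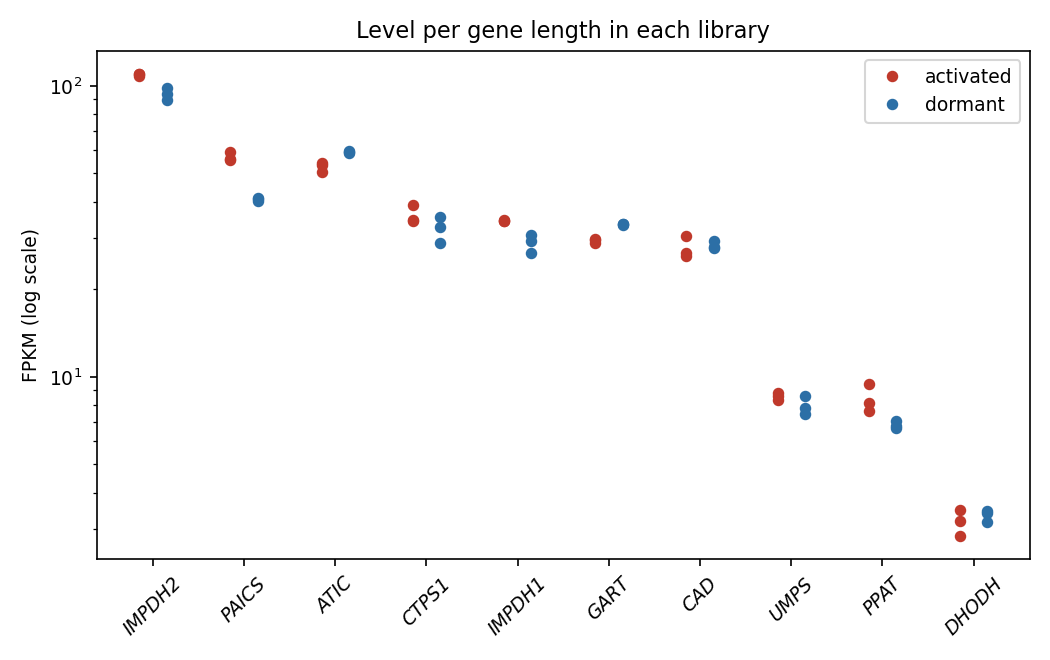
FPKM of the 10 transcripts in each library on a log axis, in the activated order, with activated libraries in red to the left of dormant libraries in blue. IMPDH2 lies near 100 FPKM, the next 6 between 26.1 and 59.7 FPKM, and UMPS, PPAT and DHODH below 10 FPKM.

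The scaling between libraries changed which of the small differences were called. No member was called in opposite directions under different scalings, and where a sign turned, the new value was short of the threshold. Scaling by totals shifted the median over all genes by -0.14 on the log2 scale. Under it PAICS, PPAT, IMPDH1 and IMPDH2 were still higher in activated cells, at 0.49, 0.30, 0.25 and 0.22 on the log2 scale. Those 4 passed in the same direction under each scaling, tool, filter and unit tried.

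**Figure D4:**
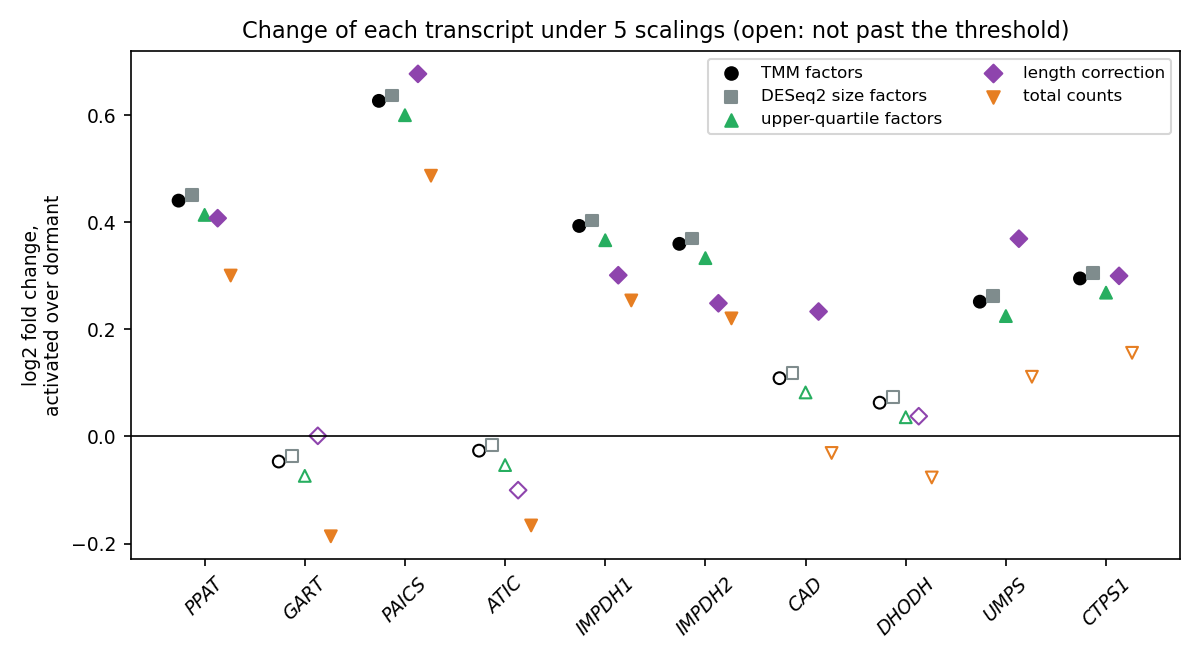
Log2 fold change, activated over dormant, of each transcript under TMM factors, DESeq2 size factors, upper-quartile factors, a correction for gene length and total counts; filled symbols passed an adjusted p of 0.05 and open symbols did not. Total counts give the lowest value for every transcript shown, and PAICS, PPAT, IMPDH1 and IMPDH2 stay filled and above 0 throughout.

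The other genes of the de novo routes were described from lists by role. Of 6 further enzymes, 4 rose, 1 fell and 1 did not pass, with a median log2 fold change of 0.41 and 83.3% called, against 73.7% of all tested genes. PFAS, which acts between GART's steps, had 95.6, 125 and 107 CPM in activated libraries, against 88.5, 84.1 and 82.9 CPM in dormant libraries (1.28-fold, adjusted p = 0.000727). ADSL, a lyase used before IMP and again on the way to AMP, averaged 70.0 ± 1.73 CPM in activated and 49.2 ± 2.16 CPM in dormant cells (1.42-fold, adjusted p = 1.06e-06). GMPS, which follows IMP dehydrogenase and completes GMP, averaged 152 ± 3.06 CPM in activated and 111 ± 3.17 CPM in dormant cells (1.37-fold, adjusted p = 7.36e-07). Together with IMPDH1 and IMPDH2, all genes listed for the path from IMP to GMP thus rose. On the AMP branch the adenylosuccinate synthetases differed in direction. ADSS2, the more abundant, averaged 67.9 ± 6.04 CPM in activated and 87.5 ± 3.81 CPM in dormant cells (log2 fold change -0.37 ± 0.07 SE, adjusted p = 0.000139), and ADSS1 averaged 5.41 ± 1.06 CPM in activated and 3.45 ± 0.34 CPM in dormant cells (0.65 ± 0.19 SE, adjusted p = 0.00675). CTPS2 averaged 35.7 ± 2.96 CPM in activated and 34.9 ± 0.42 CPM in dormant cells and did not pass (adjusted p = 0.697).

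PRPP supply was split between catalytic and associated subunits. The synthetases rose, PRPS2 by 2.04-fold to 65.5 ± 2.72 CPM in activated cells against 32.1 ± 0.87 CPM in dormant cells (adjusted p = 7.49e-10), and PRPS1 to 97.8 ± 1.503 CPM in activated cells against 67.7 ± 1.07 CPM in dormant cells (adjusted p = 1.71e-07). The associated proteins PRPSAP1 and PRPSAP2, known as negative regulators of the synthetase, fell by 0.25 and by 0.55 on the log2 scale (adjusted p = 0.00699 and 1.09e-06). PRPS1L1, a testis form, had 0 CPM in both groups.

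Of 7 tested genes of formyl-folate supply, 2 rose, 3 fell and 2 did not pass, so that 71.4% were called, against 73.7% of all tested genes. The cytosolic enzymes rose: MTHFD1, which makes the formyl-folate used by GART and ATIC, averaged 221 ± 6.92 CPM in activated and 148 ± 2.83 CPM in dormant cells (adjusted p = 4.28e-08), and SHMT1 averaged 66.6 ± 2.06 CPM in activated and 48.7 ± 1.59 CPM in dormant cells (adjusted p = 3.75e-06). Mitochondrial enzymes fell or did not pass. MTHFD2 averaged 109 ± 4.19 CPM in activated and 232 ± 5.95 CPM in dormant cells (log2 fold change -1.08 ± 0.05 SE, adjusted p = 6.21e-11), ALDH1L2 averaged 8.51 ± 1.48 CPM in activated and 56.6 ± 2.37 CPM in dormant cells (-2.73 ± 0.10 SE, adjusted p = 5.18e-12), and SHMT2 fell by 0.23. MTHFD1L and MTHFD2L, at 0.06 and 0.11, did not pass, and ALDH1L1 had 0 CPM in both groups.

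Among salvage genes, 7 of 11 tested rose, 1 fell and 3 did not pass, and with total counts 6 rose and 3 fell. The share called, 72.7%, was near the 73.7% of all tested genes. HPRT1, which rebuilds IMP and GMP from free bases, had 89.5, 79.3 and 82.4 CPM in activated libraries, against 32.9, 31.7 and 32.1 CPM in dormant libraries (2.60-fold, adjusted p = 3.92e-11). CDA, a cytidine deaminase, averaged 52.0 ± 8.37 CPM in activated and 12.9 ± 1.06 CPM in dormant cells (4.01-fold, adjusted p = 3.43e-10). UPP1, the uridine phosphorylase that frees uracil, averaged 20.6 ± 2.02 CPM in activated and 236 ± 12.3 CPM in dormant cells (log2 fold change -3.52 ± 0.07 SE, adjusted p = 2.01e-14). These named genes are the extremes of the salvage list, whose median absolute log2 fold change was 0.38, against 0.50 for all tested genes.

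Of 11 nucleotide kinases, which phosphorylate the products of both routes, 9 rose, 1 fell and 1 did not pass (90.9% called against 73.7% of all tested genes, median log2 fold change 1.02). NME4, a mitochondrial nucleoside diphosphate kinase, averaged 248 ± 12.03 CPM in activated and 87.5 ± 2.05 CPM in dormant cells (2.83-fold, adjusted p = 2.78e-12), and AK4, a mitochondrial adenylate kinase isoform, 50.7 ± 2.17 CPM in activated and 20.3 ± 1.28 CPM in dormant cells (2.49-fold, adjusted p = 3.23e-10). NME6 averaged 21.9 ± 0.19 CPM in activated and 36.1 ± 0.52 CPM in dormant cells (-0.72 ± 0.07 SE, adjusted p = 1.38e-07). NME1 and NME2 are neighbours of near-identical sequence, and their separate values are uncertain.

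Of 11 tested breakdown and interconversion genes, 7 rose, 2 fell and 2 did not pass, and with total counts 5 rose and 2 fell. The share called was 81.8%, against 73.7% of all tested genes. DPYD, which starts pyrimidine breakdown, averaged 65.2 ± 5.90 CPM in activated and 12.2 ± 0.60 CPM in dormant cells (5.32-fold, adjusted p = 1.72e-12), and GDA, guanine deaminase, 7.39 ± 0.64 CPM in activated and 2.34 ± 0.48 CPM in dormant cells (3.16-fold, adjusted p = 1.37e-06). AMPD3, an AMP deaminase, averaged 29.2 ± 5.08 CPM in activated and 56.6 ± 0.20 CPM in dormant cells (-0.96 ± 0.09 SE, adjusted p = 2.66e-07), and the nucleotidase NT5C2 142 ± 12.8 CPM in activated and 232 ± 3.79 CPM in dormant cells (-0.71 ± 0.06 SE, adjusted p = 6.70e-08).

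Of 4 tested nucleoside transporters, 2 rose, 1 fell and 1 did not pass, a share called of 75%, near the 73.7% of all tested genes. SLC29A4, which carries monoamines and adenosine, averaged 39.2 ± 3.09 CPM in activated and 4.51 ± 0.67 CPM in dormant cells (8.68-fold, adjusted p = 3.44e-12), and SLC29A1, the main equilibrative transporter, 79.2 ± 2.11 CPM in activated and 45.5 ± 0.76 CPM in dormant cells (1.74-fold, adjusted p = 3.96e-09). SLC29A2 fell by 0.32 on the log2 scale (adjusted p = 0.0094), a call lost without dormant replicate 1 (-0.25, adjusted p = 0.0606). SLC29A3, at -0.15, did not pass (adjusted p = 0.108), but passed with total counts (-0.29, adjusted p = 0.00492).

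**Figure D5:**
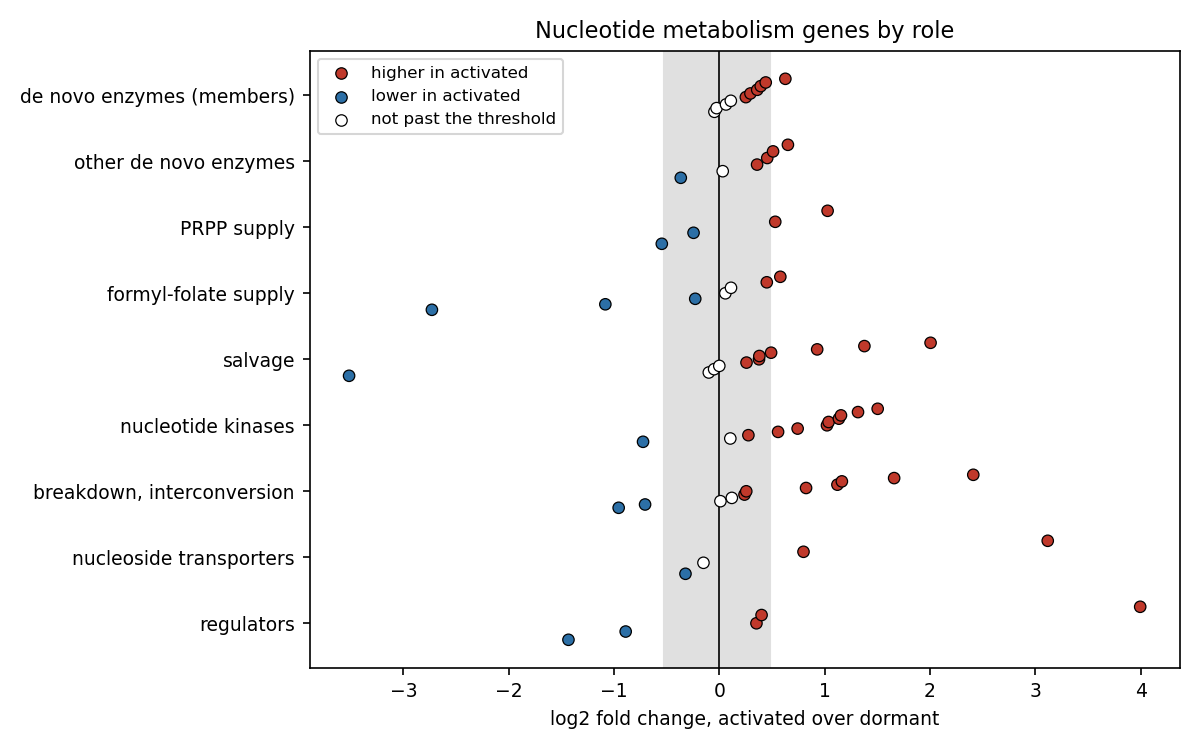
Log2 fold change, activated over dormant, of every tested gene by role in nucleotide metabolism; red points were higher and blue points lower in activated cells at an adjusted p of 0.05, open points did not pass, and the shaded band runs from the lower to the upper quartile of all tested genes. The 10 members lie between -0.05 and 0.63, the other de novo enzymes between -0.37 and 0.65, and salvage genes between -3.52 and 2.01.

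Known regulators of the routes did not move together. MYC, a transcription factor known to act on several of the de novo genes in other cells, had 197, 196 and 205 CPM in activated libraries, against 398, 344 and 366 CPM in dormant libraries (log2 fold change -0.89 ± 0.06 SE, adjusted p = 2.08e-09). ATF4 is known in other cells to act on MTHFD2 and on genes of amino acid supply. Its transcript averaged 234 ± 8.34 CPM in activated and 631 ± 19.6 CPM in dormant cells (-1.43 ± 0.05 SE, adjusted p = 2.51e-12). E2F1, a factor of the G1 to S transition, averaged 81.6 ± 2.29 CPM in activated and 5.10 ± 0.79 CPM in dormant cells (15.9-fold, adjusted p = 4.08e-14). MTOR, whose kinase signals to the purine and pyrimidine routes, and RPS6KB1, the S6 kinase that phosphorylates CAD, were 1.32-fold and 1.28-fold higher in activated cells (adjusted p = 2.81e-05 and 3.39e-05). The activity of these proteins was not measured.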

How the data were processed

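RNA from 6 A549 libraries, 3 per group, had been extracted with TRIzol and prepared with a VAHTS Universal V6 kit, per the labels' protocols. The authors deposited a table of whole-number counts by gene symbol. The FPKM values deposited by the authors equal these counts divided by a gene length and the library's total count. The submitters' processing notes name fastp, HISAT2, HTSeq and GRCh38; they give no versions, annotation or strand setting.

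The 10 members and the 8 gene lists were chosen with earlier results of these data known. All 13336 genes passing edgeR's default filter were fitted together with edgeR 4.0.16 (R 4.3.3), TMM factors and the quasi-likelihood test, with Benjamini-Hochberg adjustment over all tested genes and a threshold of 0.05. SEs are the log2 fold change over the square root of F, and 95% intervals use the fit's t quantile. CPM are TMM-normalised. Ratios of genes within a library were compared by exact permutation over libraries. The fitting script was tested on simulated data in which few genes differed, unlike here, so that test says nothing about scaling between libraries. Named genes were all members, all tested genes of lists of up to 8, and the 2 largest called rises and falls of longer lists. SON, the neighbour of GART, was added after its values were seen, as were the motifs and sequences. Gene positions and promoter windows come from RefSeq, overlaps and pseudogenes from GENCODE 29, and 1-based coordinates are used. Alternatives were other scalings (DESeq2 size factors, upper quartile, total counts), DESeq2 1.42.0, limma 3.58.1 with voom, other filters, a replicate block, each library left out, limma on log2(FPKM + 1) or log2(FPKM + 0.1), and a loess correction for gene length (span 0.3).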

Additional observations from a re-analysis of the deposited data

How the results depend on the processing

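Calls covered 6 members in the main fit and 6 or 7 under all alternatives, and 9298 to 9756 genes when 1 library was left out. The replicate block gave 6 members higher, as did the fit without it, and 4847 genes higher and 4942 lower; exact permutation of the ratios within numbers gave p = 0.25 each, the smallest that 3 pairs allow, so this test cannot pass the threshold. Deviations of libraries sharing a number correlated at 0.0023, 0.0177 and 0.0033, so the numbers share no measurable link. With total counts and the 3 FPKM fits, 4 members were higher and 2 lower, UMPS and CTPS1 losing their calls and GART and ATIC gaining one. Of 180 alternative values of the 10 members, 151 kept direction and side of the threshold, 8 lost and 10 gained a call and 11 changed sign. Of 648 values of the other named genes, 627 kept both.

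Signs turned only for genes short of the threshold, and the cause was not tested. With total counts, filtered log2(FPKM + 1), filtered log2(FPKM + 0.1) and unfiltered log2(FPKM + 1), in that order, CAD was at -0.031, -0.033, -0.034 and -0.033, DHODH at -0.077, -0.060, -0.077 and -0.060, CTPS2 at -0.108, -0.097, -0.110 and -0.097, MTHFD1L at -0.083, -0.071, -0.082 and -0.071, and MTHFD2L at -0.029, -0.016, -0.031 and -0.016. GART was at 0.0011 after the length correction. Leaving out 1 library gave ATIC -0.046 to 0.0051, DHODH -0.0057 to 0.14 and CTPS2 -0.033 to 0.086. PFAS lost its call with unfiltered log2(FPKM + 1). With the length correction CAD and MTHFD1L gained one, at 0.23 and 0.22.

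The members had 306 to 9507 counts per library. DHODH, with the fewest counts, had the widest interval.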
